A study of Mus musculus with 2 samples.

Results

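Klf2, Klf4, Nos3, Thbd, Edn1 and Piezo1 were the 6 genes described here, chosen by symbol from the 31053 genes counted, because endothelial cells are known to sense blood flow through them or to change their expression with it. Flow itself was not measured in these libraries. The counts came from single cells of the aortic arch of male Apoe-/- mice on a C57BL/6 background, which lack apolipoprotein E and are prone to atherosclerosis. Mice of the control (ND) group ate chow and mice of the Western diet (HFD) group ate a high-fat, high-cholesterol diet for about 12 weeks after weaning, and both were 16 weeks old when the tissue was taken. The Apoe deletion was carried by both groups, so no wild-type vessel was available for comparison. Each group was 1 library made from 2 pooled aortas, so the diets could not be tested against the spread between mice. Values are therefore given for each library with exact 95% intervals that cover counting error only, and a difference between the diets cannot be told apart from a difference between the 2 libraries.

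As background, blood flow exerts shear stress on the endothelium. Piezo1 is a mechanically gated cation channel through which endothelial cells respond to it. Steady laminar flow is known to act through a kinase cascade on MEF2 factors, which induce the zinc finger transcription factors Klf2 and Klf4. These factors favour a quiescent, anti-thrombotic endothelium. Their known targets include Nos3, the endothelial nitric oxide synthase that produces a vasodilator, and Thbd, which encodes thrombomodulin, the thrombin receptor needed to activate protein C. Edn1 encodes the precursor of the vasoconstrictor peptide endothelin-1 and is generally repressed under sustained laminar flow. The arch is known for regions of disturbed flow at its inner curvature, where plaques tend to form.

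On GRCm38, the build that the submitters name as mm10, Klf2 (ENSMUSG00000055148) lies on chr8:72319033-72321656 on the plus strand with 3 exons, and Klf4 (ENSMUSG00000003032) on chr4:55527143-55532466 on the minus strand with 5 exons. Nos3 (ENSMUSG00000028978, chr5:24364810-24384474, plus strand) has 26 exons and overlaps Atg9b and Gm15587 on the opposite strand. Thbd (ENSMUSG00000074743, chr2:148404466-148408188, minus strand) has 1 exon. Edn1 (ENSMUSG00000021367, chr13:42301476-42307990, plus strand) has 5 exons and overlaps the antisense gene Gm47118. Piezo1 (ENSMUSG00000014444, chr8:122481698-122551329, minus strand) has 51 exons and overlaps Ctu2, Gm20388 and Gm26497. The stretch from 200 to 50 bases before the RefSeq start of transcription (GRCm38.p6) is printed for the 4 members that have an entry, 5′ to 3′ on the strand of the gene, because MEF2 factors and the KLF family act through short motifs in promoters. Capitals mark a MEF2 motif or a CACCC motif (GGGTG on the other strand), both searched on both strands.
Klf2, chr8:72318862-72319012, plus strand: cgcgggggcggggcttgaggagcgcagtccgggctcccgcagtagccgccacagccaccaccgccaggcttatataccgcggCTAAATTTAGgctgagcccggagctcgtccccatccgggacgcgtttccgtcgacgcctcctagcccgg
Klf4, chr4:55532525-55532675, minus strand: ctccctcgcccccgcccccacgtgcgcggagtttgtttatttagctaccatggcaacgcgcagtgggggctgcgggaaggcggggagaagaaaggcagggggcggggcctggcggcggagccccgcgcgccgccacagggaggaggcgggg
Edn1, chr13:42301276-42301426, plus strand: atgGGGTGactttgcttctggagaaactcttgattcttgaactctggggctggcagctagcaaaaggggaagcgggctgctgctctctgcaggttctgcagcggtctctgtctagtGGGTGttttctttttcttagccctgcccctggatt
Piezo1, chr8:122551379-122551529, minus strand: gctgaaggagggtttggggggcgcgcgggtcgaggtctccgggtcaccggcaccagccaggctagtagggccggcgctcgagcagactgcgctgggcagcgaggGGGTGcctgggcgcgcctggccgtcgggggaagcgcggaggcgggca
The Klf2 stretch held a MEF2 match from -118 to -109 relative to the start. Such a match was present in 586 of 32851 promoter stretches of the same length, or 1.78%. The Edn1 stretch held GGGTG from -197 to -193 and from -84 to -80, and the Piezo1 stretch held it from -96 to -92. CACCC or GGGTG was present in 36.8% of all stretches. The letters searched were not found in the Klf4 window. A match is a description of the letters only, and no factor was measured at these positions.

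The ND library held 10234 barcodes, of which 5416 were kept, and the HFD library held 14225, of which 2739 were kept. Kept cells had a median of 3732.5 UMIs (unique molecular identifiers, each counting 1 captured RNA molecule) under ND and 5336 under HFD. The median share of mitochondrial UMIs was 16.8% under ND and 21.9% under HFD, and the members are compared below at matched shares. The libraries had 39 barcodes in common, 1 of them among the kept cells.

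Endothelial cells were gated by at least 1 UMI each of Pecam1 and Cdh5 without the markers of another lineage, which left 2014 ND cells and 956 HFD cells. Luminal cells, gated on Vwf and Vcam1, numbered 204 and 95. Capillary cells, gated on Gpihbp1, which anchors lipoprotein lipase on capillary endothelium, numbered 1118 and 604. Among the capillary cells, 521 ND and 47 HFD cells carried Cxcl9, an interferon-induced chemokine, and 597 and 557 had none of it. A further 165 and 104 cells were gated on Stc1, Hey1 and Sema3g. Lymphatic endothelial cells numbered 26 and 6, and the remaining gated endothelial cells 501 and 147.

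Genes not used in the gates set the luminal cells apart from the capillary cells. The cytokine-like gene Cytl1 was at 5552 CPM (counts scaled to 1000000 UMIs) in luminal and 3.01 CPM in capillary cells of the ND library, and at 3433 and 2.13 CPM in the HFD library. The arterial connexin gene Gja5 was at 498 and 507 CPM in luminal cells of the ND and HFD libraries. In the Stc1/Hey1/Sema3g cells Gja5 was at 37.8 and 14.2 CPM, Gja4 at 24.1 and 3.88 CPM, and Bmx at 8.60 CPM under ND and 0 UMIs under HFD. These levels went against an arteriolar name for that gate, and it is called by its marker genes. Its cells did carry Efnb2, a ligand of arterial endothelium, at 378 and 326 CPM, against 165 and 210 CPM in capillary cells. A gate on monocyte genes was left out, since its 25 ND cells carried the immunoglobulin gene Ighm at 27491 CPM, above the 6616 CPM of the B cells.

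Piezo1, the sensor, was lower in luminal cells than in the other endothelial subtypes. In the ND library it was at 90.1 CPM (76.0 to 106) in luminal cells and 172 CPM (161 to 184) in capillary cells. In the HFD library the levels were 93.5 CPM (74.0 to 117) and 135 CPM (122 to 148). The intervals of luminal and capillary cells did not overlap in either library, although that of the 47 HFD Cxcl9 capillary cells, at 123 CPM (88.5 to 167), overlapped the luminal one. The log2 ratio of luminal over capillary was -0.94 (-1.20 to -0.68) under ND and -0.53 (-0.89 to -0.18) under HFD. Between the diets, luminal Piezo1 differed by 0.05 (-0.36 to 0.46) on the log2 scale, HFD over ND, and the mean of each cell's own CPM gave -0.26. In capillary cells it was lower in the HFD library by a log2 ratio of -0.36 (-0.52 to -0.19).

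Klf2 was at nearly the same level in the 4 larger endothelial subtypes of a library, and lower in the HFD library in each of them. In the 26 ND lymphatic endothelial cells it was lower than in these 4, at 934 CPM (807 to 1076). In luminal cells it was at 2169 CPM (2097 to 2242) under ND and 1419 CPM (1339.8 to 1502) under HFD. In capillary cells it was at 2071 CPM (2033 to 2110.5) and 1450.2 CPM (1409 to 1492). The diets' intervals lay apart in both subtypes, whereas luminal and capillary cells differed by log2 ratios of only 0.07 and -0.03. The highest Klf2 level of any cell class was that of the ND Stc1/Hey1/Sema3g cells, at 2471 CPM (2381 to 2563), whose interval lay above that of luminal cells. In the HFD library those cells were at 1447 CPM (1363 to 1534), and the intervals of all 4 subtypes overlapped, with levels of 1396 to 1456 CPM. The log2 ratio of HFD over ND was -0.61 (-0.71 to -0.52) in luminal, -0.77 (-0.87 to -0.67) in Stc1/Hey1/Sema3g, -0.58 (-0.72 to -0.45) in Cxcl9 capillary and -0.49 (-0.55 to -0.43) in other capillary cells.

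Klf4, which shares many targets with Klf2, was distributed differently. In luminal cells it was at 923 CPM (877 to 972) under ND and 530.2 CPM (482 to 582) under HFD. In capillary cells it was at 1378 CPM (1347 to 1409.8) and 1506 CPM (1464 to 1548). Luminal cells were thus the lowest of the 4 subtypes in both libraries, and the diets' intervals lay apart in opposite directions, lower in HFD luminal cells and higher in HFD capillary cells. The log2 ratio of HFD over ND was -0.80 (-0.96 to -0.65) in luminal and 0.13 (0.08 to 0.18) in capillary cells. The highest level was in the Stc1/Hey1/Sema3g cells, at 1814 CPM (1737 to 1893) and 1736 CPM (1644 to 1831), where the intervals overlapped and the sign of the diet ratio depended on the scaling (-0.10 to 0.01).

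**Figure D1:**
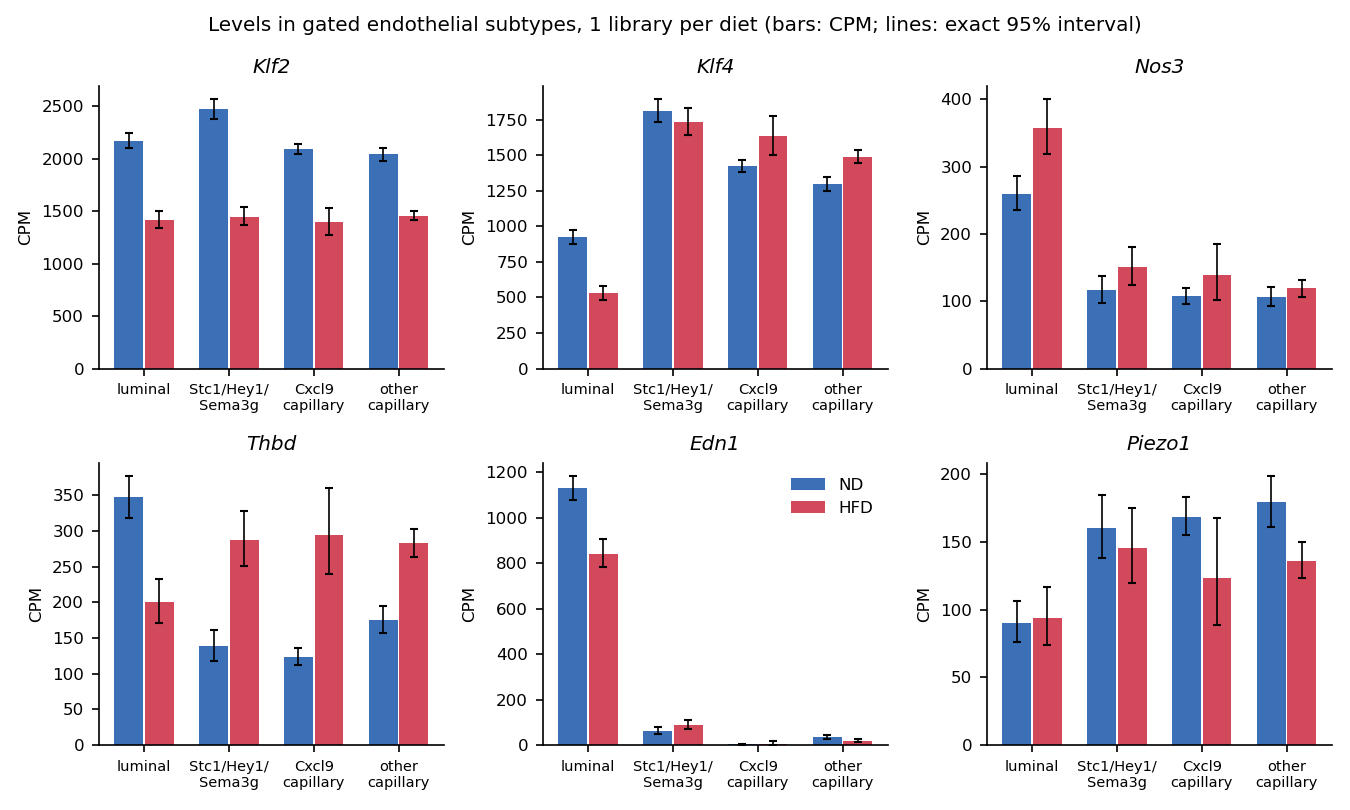
Level (CPM, linear axis from 0) of the 6 genes in 4 endothelial subtypes of the ND and HFD libraries, with bars for the pooled level of 1 library and error bars for the exact 95% counting interval. Klf2 is lower in the HFD library in every subtype, Edn1 stands out in luminal cells, and Klf4 and Thbd differ in opposite directions in luminal and capillary cells.

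Nos3 was highest in luminal cells. It was at 259.8 CPM (235 to 286) in luminal and 107 CPM (98.6 to 116) in capillary cells of the ND library, and at 357 CPM (318 to 400.1) and 121 CPM (109 to 133) in the HFD library. Luminal levels were 2.42-fold and 2.95-fold those of capillary cells, with intervals apart in both libraries. Luminal cells made up 3.77% of kept ND cells and 3.47% of kept HFD cells but carried 22.7% and 22.3% of all Nos3 UMIs. The luminal level was higher in the HFD library, with a log2 ratio of 0.46 (0.24 to 0.68). In capillary cells the ratio was 0.17 (-0.01 to 0.36), an interval that included 0. The share of luminal cells with a Nos3 UMI, after thinning each cell to 2000 UMIs, was 39.1% under ND and 56.8% under HFD, against 73.0% and 81.1% without thinning. Outside the endothelium the share of cells with a Nos3 UMI, without thinning, differed between classes. It was 0 of 516 ND B cells (3431.5 median UMIs), which allows up to 0.581% of cells with a UMI, 0.627% of 957 ND fibroblasts (3785 median UMIs), 0.771% of 389 HFD fibroblasts (4372) and 2.04% of 491 HFD macrophages (5773). It reached 17.3% of 52 HFD erythroid cells (4016) and 33.3% of 21 ND adipocytes (16745). Luminal cells had medians of 5853.5 and 6790 UMIs.

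Thbd differed between the subtypes in opposite ways in the 2 libraries. In luminal cells it was at 347 CPM (319 to 377) under ND and 200.0 CPM (171 to 233) under HFD. In capillary cells it was at 143 CPM (133 to 154) and 284 CPM (266 to 302). Luminal cells were therefore the higher of the 2 on chow and the lower on the Western diet, and the intervals were apart each time. The HFD order was not kept at matched mitochondrial share. As CPM of non-mitochondrial UMIs, HFD luminal and capillary cells were at 218 (166 to 280.1) and 313 (277 to 353) in cells with 10% to 20% mitochondrial UMIs, but at 471 (355 to 613) and 396 (366 to 427) in cells with 20% to 30%, and the intervals overlapped in both ranges. The ND order was kept in all 3 ranges. The log2 ratio of HFD over ND was -0.79 (-1.05 to -0.54) in luminal and 0.99 (0.85 to 1.13) in capillary cells. It was 1.05 (0.76 to 1.36) in Stc1/Hey1/Sema3g, 1.25 (0.92 to 1.58) in Cxcl9 capillary and 0.69 (0.51 to 0.87) in other capillary cells. After thinning, the share of capillary cells with a Thbd UMI was 20.2% under ND and 38.3% under HFD, against 34.2% and 68.2% without. In luminal cells the thinned shares were 51.0% and 34.7%, against 78.9% and 73.7% without.

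Edn1 showed the steepest difference between subtypes. It was at 1131 CPM (1079.5 to 1184) in luminal and 15.4 CPM (12.3 to 19.1) in capillary cells of the ND library, and at 843 CPM (782 to 907) and 17.9 CPM (13.7 to 23.1) in the HFD library. Luminal levels were 73.4-fold and 47.0-fold those of capillary cells, and luminal cells carried 50.4% and 37.8% of all Edn1 UMIs of their library. The Stc1/Hey1/Sema3g cells lay between, at 62.8 CPM (49.2 to 78.9) and 88.1 CPM (68.4 to 112). Barcodes set aside because they passed both an endothelial gate and that of another class also held much Edn1. They carried 30.2% of its ND UMIs, at 277 CPM, and 529 of its 1882 HFD UMIs, at 137 CPM. Cxcl9 capillary cells held only 9 Edn1 UMIs under ND and 1 under HFD, and the log2 ratio to other capillary cells was -3.73 (-4.92 to -2.73) in the ND library. Within the luminal gate Edn1 was uneven, since 24.5% of ND and 33.7% of HFD cells had no UMI of it, and the tenth of cells with the most held 43.5% and 57.4% of its UMIs. The luminal log2 ratio of HFD over ND was -0.42 (-0.55 to -0.30), but it did not keep its sign within ranges of the mitochondrial share, where Edn1 was higher in the HFD library in 2 of 3 ranges (-0.82 to 0.23).

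**Figure D2:**
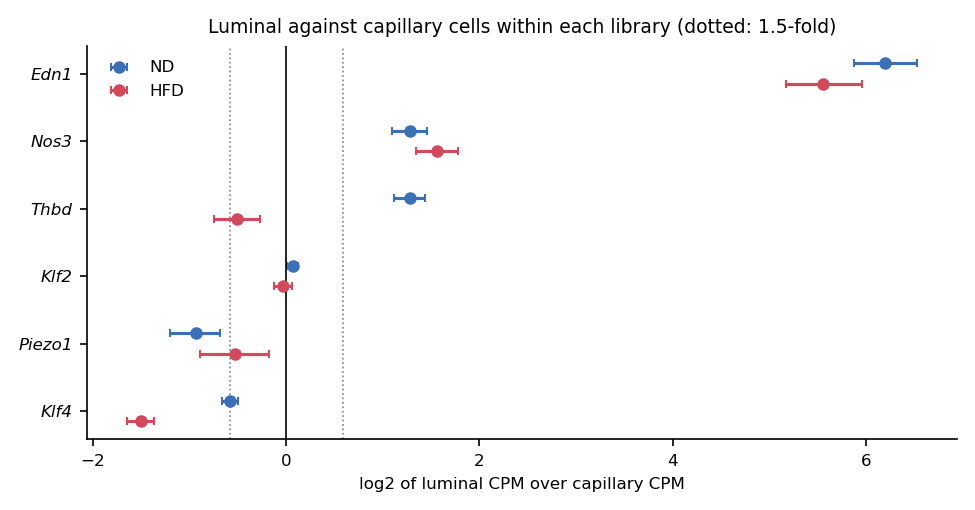
Log2 ratio of the luminal over the capillary level for each gene, 1 point per library, with exact 95% counting intervals and dotted lines at 1.5-fold. Edn1 (6.20 and 5.55) and Nos3 (1.28 and 1.56) lie above 1.5-fold in both libraries, and Thbd lies on opposite sides of 0 (1.28 and -0.50).

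Across the 6 genes, 2 (Nos3 and Edn1) were at least 1.5-fold higher in luminal than in capillary cells in both libraries, as were 19.8% of the 8172 genes with at least 100 UMIs, and 0 were that much lower in both, against 15.4% of those genes. Against the Stc1/Hey1/Sema3g cells, 2 (Nos3 and Edn1) were higher, where the background was 18.3% of 5680 genes, and 2 (Klf4 and Piezo1) were lower, where it was 16.8%. Edn1 was also higher in the Stc1/Hey1/Sema3g cells than in capillary cells, where 1.77% of 7647 genes were, and 0 members were lower, against 1.16%. In Cxcl9 against other capillary cells Edn1 was lower, as were 0.972% of 7097 genes, and 0 members were higher, against 0.888%.

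Over all gated endothelial cells, no member differed by 1.5-fold between the diets. Klf2 was at 2117 CPM (2088 to 2145) under ND and 1438 CPM (1407 to 1469) under HFD, and Thbd at 189 CPM (181 to 198) and 276 CPM (262 to 289.6). These were the members with the largest differences, with log2 ratios of -0.56 (-0.59 to -0.52) and 0.54 (0.45 to 0.64). Of the genes tested, 13.0% had a lower ratio than Klf2 and 94.96% a lower ratio than Thbd. Thbd was past 1.5-fold under 5 of 10 alternatives to the processing, with log2 ratios of 0.62 to 0.87. Klf2 was past it under 2 (both -0.61) and Edn1 under 2 (-0.78 and -0.59), and Edn1 was at 0.0612 in cells with at most 20% mitochondrial UMIs. The ratio was 0.26 (0.14 to 0.39) for Nos3, 0.05 (0.01 to 0.10) for Klf4, -0.26 (-0.38 to -0.13) for Piezo1 and -0.37 (-0.49 to -0.26) for Edn1. The background was 4.34% of 9082 genes at least 1.5-fold higher in the HFD library and 12.1% lower, and the median log2 ratio of all these genes was -0.11.

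Within subtypes, luminal cells had 3 of 6 members (Klf2, Klf4 and Thbd) at least 1.5-fold lower in the HFD library, against a background of 10.2% of 3663 genes, and 0 higher, against 7.37%. The luminal count was 3 by the median of ratios, 2 when mitochondrial, haemoglobin and ribosomal protein genes were left out of the scaling (Klf2 at -0.57) and 1 by the mean of each cell's CPM (Klf2 at -0.52 and Thbd at -0.51), where Klf4 alone passed. Stc1/Hey1/Sema3g cells had Thbd higher (background 6.4% of 3000 genes) and Klf2 lower (12.1%). Capillary cells as a whole had Thbd higher (5.58% of 7097 genes) and 0 members lower (13.7%). Within them, Cxcl9 capillary cells had Thbd higher (7.03% of 4695 genes) and 0 lower (18.2%). Their Klf2 ratio was just short of 1.5-fold at -0.58 and just past it under 2 other scalings (both -0.59). It was -0.50 when mitochondrial, haemoglobin and ribosomal protein genes were left out of the scaling. The other capillary cells had Thbd higher (6.57% of 5481 genes) and Edn1 lower (11.5%), at 36.2 CPM (28.4 to 45.5) and 19.6 CPM (14.9 to 25.4). The remaining endothelial cells had 0 members higher (6.61% of 3946 genes) and 0 lower (11.6%). Barcodes that passed both an endothelial gate and that of another class had Thbd higher (4.86% of 7762 genes) and Edn1 lower (14.1%).

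**Figure D3:**
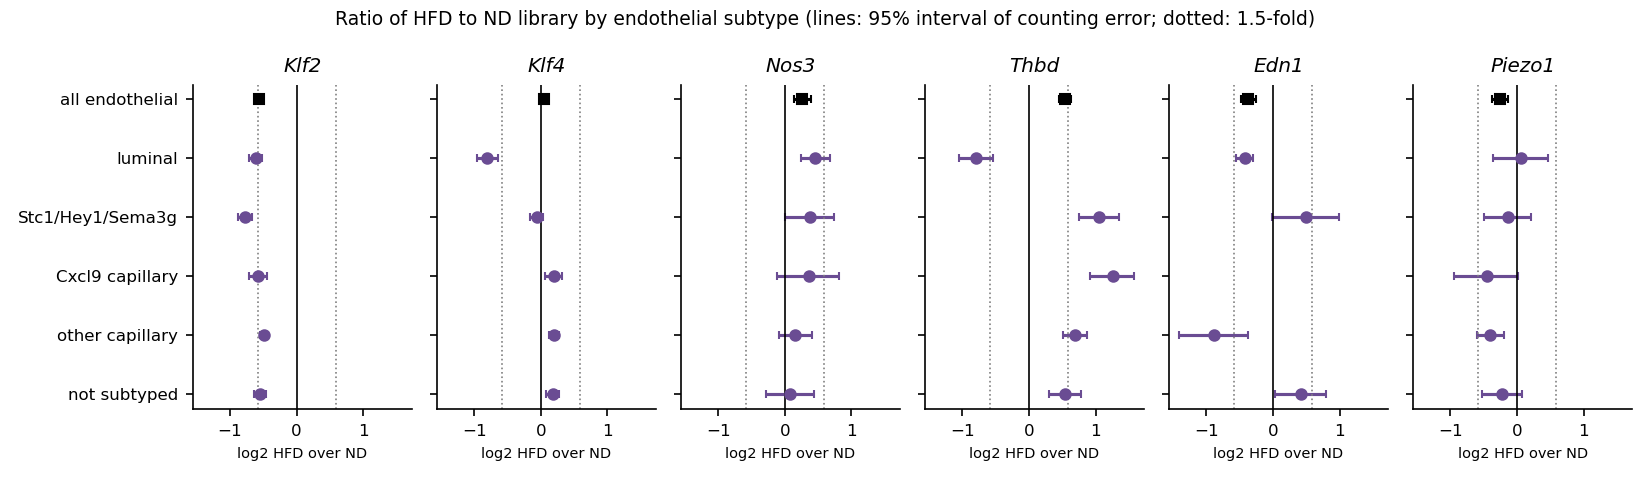
Log2 ratio of HFD over ND for each gene in the endothelial subtypes, with squares for all gated endothelial cells and exact 95% counting intervals. Points with 3 or fewer UMIs in a library are left out. Klf2 lies below 0 throughout, and Klf4 and Thbd lie below 0 only in luminal cells among those whose interval excludes 0.

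The lower Klf2 level in the HFD library extended to cells outside the endothelium. Across the 9 cell classes with enough cells in both libraries (5 endothelial ones, fibroblasts, macrophages, dendritic cells and T cells), Klf2 was lower in 9, with log2 ratios of -1.39 to -0.46 and an interval below 0 in 8. Over the 7 of these classes that could be set beside other genes, 11.2% of 2187 genes were lower in every class and 3.29% were higher in every class. Klf4 was higher in 3 and lower in 6 of the 9 classes, and Thbd was higher in 5 and lower in 2 of the 7 with enough UMIs. Nos3 was higher in 5 of 5 classes, all of them endothelial, with log2 ratios of 0.08 to 0.46 and an interval above 0 in 2.

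Macrophages as a whole held less Klf2 and Klf4 than the gated endothelial cells as a whole. Klf2 was at 417 CPM (387 to 448) in 357 ND macrophages and 159 CPM (146 to 173) in 491 HFD macrophages. Klf4 was at 494 CPM (461 to 528) and 295 CPM (277 to 313), and Thbd at 69.1 CPM (57.4 to 82.6) and 28.0 CPM (22.6 to 34.2). The intervals of the libraries were apart for these 3 genes, which were lower by at least 1.5-fold (background 14.3% of 5212 genes). Piezo1 went the other way, from 37.7 CPM (29.2 to 48.0) to 60.6 CPM (52.6 to 69.5), where 8.52% of genes were higher. Macrophages with mostly Lyve1 or Folr2 UMIs, known from resident cells, numbered 201 and 176, and those with mostly Gpnmb or Trem2 UMIs, known from lipid-laden foam cells, 29 and 184. Klf2 was lower in the HFD library within both, at 576 and 315 CPM in the first and 127 and 71.6 CPM in the second. Klf4 did not differ by 1.5-fold within either kind. It was at 651 CPM (601 to 704) and 545 CPM (499.6 to 594) in the first, and 199 CPM (144 to 267) and 161 CPM (142 to 181) in the second. In the second kind the intervals of the libraries overlapped for both genes. The HFD Klf4 level of the first kind overlapped that of HFD luminal cells, at 530.2 CPM (482 to 582). Klf2 and Klf4 were lower in the second kind of macrophage than in the first, and the share of the second kind differed between the libraries.

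Fibroblasts were the class with the highest Thbd level and carried Edn1 as well. Edn1 was at 77.2 CPM (68.6 to 86.6) in 957 ND fibroblasts and 190.0 CPM (170.1 to 211) in 389 HFD fibroblasts, a log2 ratio of 1.30 (1.07 to 1.53), and the intervals were far apart. In the ND library that level overlapped those of the remaining endothelial cells, at 79.6 CPM (67.5 to 93.1), and of the Stc1/Hey1/Sema3g cells, whereas in the HFD library it was above both. Edn1 was the only 1 of the 5 members with enough UMIs that was at least 1.5-fold higher there (background 4.19% of 6496 genes), and Klf2 was lower, at 273 and 173 CPM (background 13.4%). Fibroblasts with mostly Pi16 UMIs, 493 and 254 cells, carried more Edn1, at 119 and 264 CPM, than those with mostly Inmt or Gdf10 UMIs, at 11.3 and 13.7 CPM. Thbd was at 457 CPM (435 to 479) and 489 CPM (457 to 523) in all fibroblasts, and its ratio, 0.10 (-0.02 to 0.22), had an interval that included 0. The kinds of fibroblast were not alike in this. Those with mostly Pi16 UMIs were lower in the HFD library, at 679 CPM (644 to 714) and 539 CPM (499 to 581). Those with mostly Inmt or Gdf10 UMIs were at 160 CPM (130 to 195) and 242 CPM (181 to 316), with overlapping intervals. After all fibroblasts, the next highest Thbd level in the ND library was that of the 26 lymphatic endothelial cells, at 436 CPM (350.3 to 535). It overlapped both fibroblasts and luminal cells.

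T cells had Klf2 at 353 CPM (314 to 396) in 283 ND cells and 146 CPM (94.5 to 215) in 28 HFD cells, and Klf4 at 243 CPM (210.4 to 279) and 46.7 CPM (20.2 to 92.0). Klf2 is also known in T cells, where it governs their exit from lymphoid tissue. Both members were at least 1.5-fold lower in the HFD library, as were 22.9% of the 1180 genes tested, and 0 were higher, against 17.4%. In 34 ND and 39 HFD dendritic cells Klf4 was lower, at 434 CPM (358 to 522) and 239 CPM (182 to 308), where 9.52% of 546 genes were, and 0 of the 2 members with enough UMIs were higher, against 7.33%. Nos3 and Edn1 had 0 UMIs in the 283 ND T cells, which allows up to 3.64 CPM, and in the 516 ND B cells, which allows up to 1.44 CPM.

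**Figure D4:**
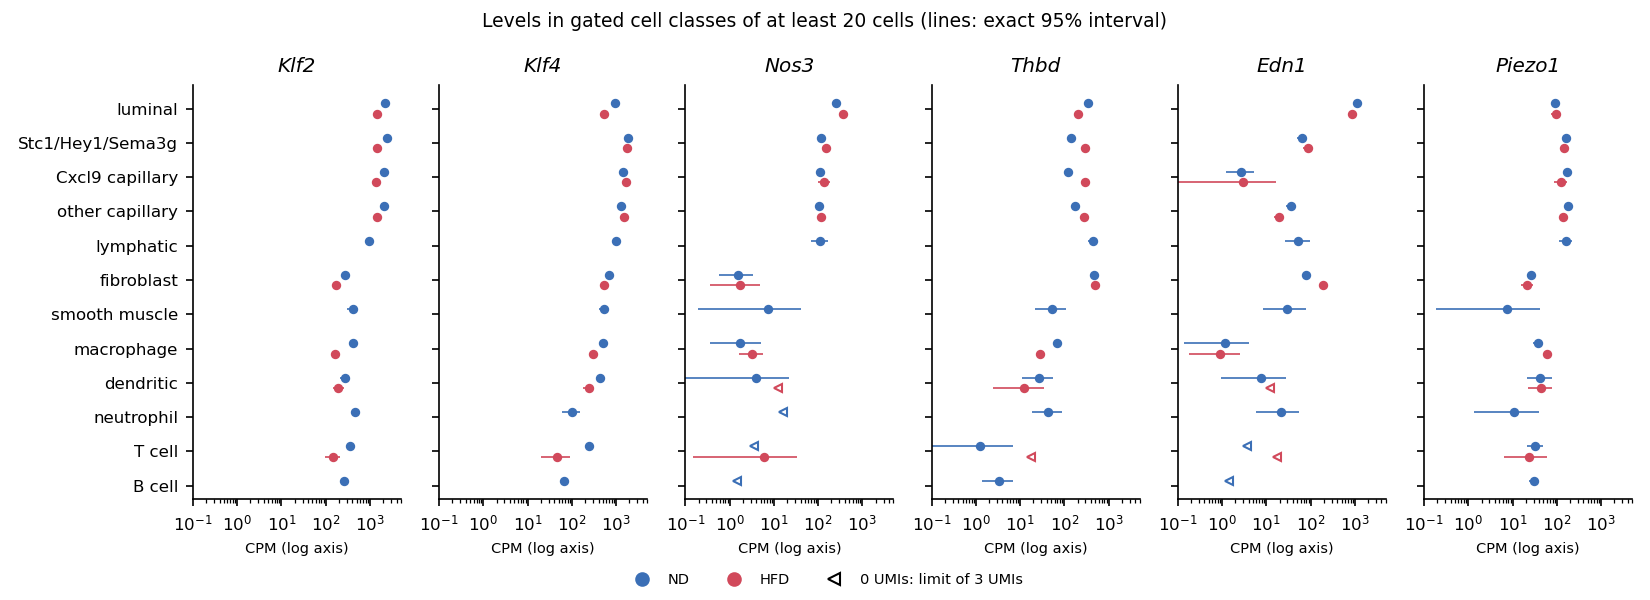
Level (CPM, log axis) of the 6 genes in 12 gated cell classes, shown for each library with at least 20 cells, with exact 95% counting intervals. Open triangles stand for 0 UMIs and are drawn at the level of 3 UMIs. Nos3 is below 10 CPM in the non-endothelial classes drawn that have a UMI of it. For 0 UMIs its limit is above 10 CPM in ND neutrophils (16.4 CPM) and HFD dendritic cells (12.1 CPM). The classes drawn leave out HFD erythroid cells (Nos3 at 44.4 CPM) and ND adipocytes (36.02 CPM). Edn1 is highest in luminal cells.

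Cells with a higher mitochondrial share were more common in the HFD library (medians of 17.4% against 11.8% in luminal cells), so the members were set side by side within ranges of that share, as CPM of non-mitochondrial UMIs. Klf2 was lower in the HFD library in 3 of 3 luminal ranges (log2 ratios of -0.79 to -0.49) and 4 of 4 capillary ranges (-0.63 to -0.38). Klf4 was lower in 3 of 3 luminal ranges (-0.89 to -0.20) and higher in 4 of 4 capillary ranges (0.12 to 0.33). Both capillary counts took in the ranges of 30% to 50% and over 50%, which lie above the limit of 30% used elsewhere. The Klf4 intervals of the libraries overlapped in both of these ranges. They also overlapped in luminal cells with 20% to 30%, at 824 (626 to 1065) under ND and 719 (573 to 890) under HFD. In the other ranges they were apart. Thbd was lower in 3 of 3 luminal ranges (-1.11 to -0.56) and higher in 3 of 3 capillary ranges (0.37 to 1.17). Its capillary ratio over 50% could not be formed, since the 21 ND cells had 0 UMIs of it. The Thbd intervals overlapped in capillary cells with 30% to 50%, at 317 (254 to 391) under ND and 410 (383 to 438) under HFD. In luminal cells with 20% to 30% they overlapped as well, at 696 (515 to 920) and 471 (355 to 613). Nos3 was higher in 3 of 3 luminal ranges (0.30 to 0.60), and its intervals were apart only in cells with up to 10%. Edn1 did not keep its direction in luminal cells, as given above.

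**Figure D5:**
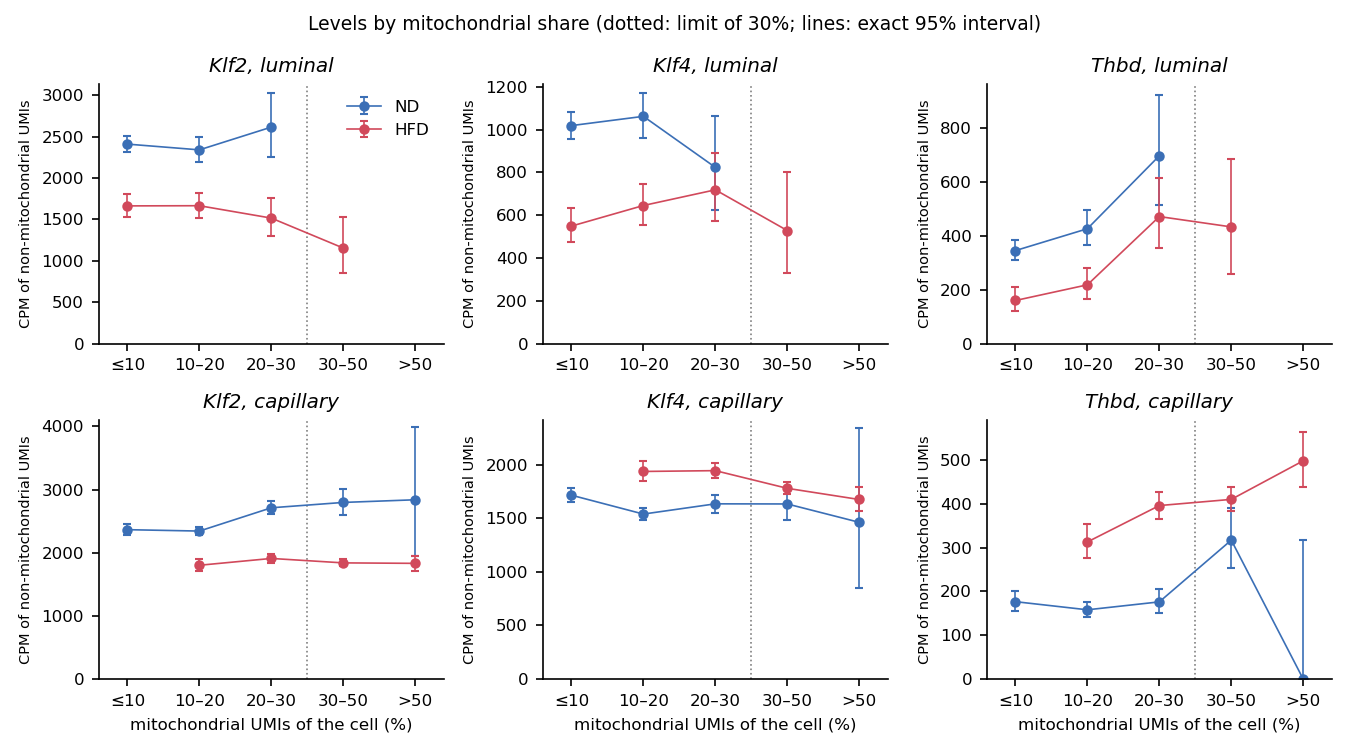
Level of Klf2, Klf4 and Thbd (CPM of non-mitochondrial UMIs) in luminal cells (top) and capillary cells (bottom) by range of the mitochondrial share, with exact 95% counting intervals and a dotted line at the limit of 30% used elsewhere. Klf2 is lower in the HFD library in each range drawn for both libraries. Klf4 and Thbd are lower in luminal and higher in capillary ranges, with overlapping intervals in some ranges.

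Immediate early genes are induced by tissue digestion as well as by flow, and their levels are given beside Klf2 and Klf4 because these too can respond to handling. Of 16 genes listed as immediate early or tissue dissociation genes, 0 were at least 1.5-fold higher in HFD endothelial cells, against 4.34% of all genes. Only 1 was lower, the heat shock gene Hspa1b (540 and 310 CPM), against 12.1% of all genes. The median log2 ratio of the 16 was -0.29. In luminal cells 0 were higher and 6 lower, against 7.37% and 10.2%, with a median of -0.38, among them Dusp1 (1156 and 476 CPM) and Egr1 (1096 and 570 CPM). Their part in the luminal Klf2 and Klf4 ratios was not tested. Luminal cells also had 12 of the 16 at a lower level than capillary cells in both libraries, against 15.4% of all genes, with a median log2 ratio of -1.31.

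The other genes of the flow pathway were counted by group. Of 17 flow sensors and membrane partners tested in endothelial cells, Piezo1 included, 0 were at least 1.5-fold higher in the HFD library and 1 was lower, Plxnd1 (364 and 206 CPM), a semaphorin receptor that can sense flow, against 4.34% and 12.1% of all genes. None of 9 kinases and MEF2 factors passed this fold. Among 17 genes known to rise with laminar flow or with the KLF factors, 4 of them members, 1 was higher and 3 were lower, none of them a member, with a median log2 ratio of 0.04. Among 10 genes known from disturbed flow, Edn1 included, 0 were higher and 5 were lower, with a median of -0.56 against -0.11 over all genes. These were Ctgf, a matrix-associated growth factor with the lowest ratio of all pathway genes (84.0 and 27.6 CPM), Cyr61 (631 and 318 CPM), Bmp4 (169 and 82.2 CPM), Ccl2 (14.3 and 6.56 CPM) and Vcam1 (199 and 124 CPM), which had been used to gate luminal cells.

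Of 9 tested partners of nitric oxide synthesis, 3 were higher in HFD endothelial cells and 0 lower, on the same background of 4.34% and 12.1%. Ddah1 (13.0 and 25.0 CPM) and Ddah2 (58.6 and 96.3 CPM) break down endogenous inhibitors of the synthase, and Nostrin (4.59 and 20.5 CPM) binds the synthase and directs its traffic. Nostrin had the largest ratio of all pathway genes, 2.16 (1.66 to 2.68) on the log2 scale. Of 4 tested partners of thrombomodulin, the thrombin receptor gene F2r (121 and 71.3 CPM) and the protein C cofactor gene Pros1 (109 and 69.2 CPM) were lower, and F2rl1 (6.25 and 10.9 CPM) was higher.

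In luminal cells, 3 of 16 laminar flow and KLF genes were at least 1.5-fold higher in the HFD library and 6 were lower, against 7.37% and 10.2% of all 3663 genes, with a median log2 ratio of -0.38 against -0.02. Klf2, Klf4 and Thbd were 3 of those 6, so this count partly repeats the members. Dusp1 was also among the 6 and repeats an immediate early gene given above. The water channel Aqp1 (326 and 871 CPM) and the prostaglandin transporter Slco2a1 (394 and 673 CPM) were among the higher. Aqp1 was also on the list of genes set to check the capillary gate, and the part of capillary RNA in its luminal level was not tested. Of 8 disturbed flow genes 1 was higher and 5 were lower, with a median of -0.77, and Cyr61 (1198 and 308 CPM) and Ctgf (389 and 124 CPM) had the lowest ratios. Among those 5 were the gate gene Vcam1 and Egr1, which was also counted with the immediate early genes. Genes of both lists were thus among those lower in the HFD luminal cells.

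Between the subtypes, 4 of 4 tested thrombomodulin partners were at least 1.5-fold higher in luminal than in capillary cells in both libraries, against 19.8% of all genes, with a median log2 ratio of 3.64 against 0.09. Of 2 tested endothelin partners, Ece1, which processes the endothelin precursor, was higher (log2 ratios of 1.88 under ND and 3.11 under HFD). Ednrb, an endothelin receptor, was lower (-4.10 and -6.15). Among the 17 sensors, 5 were higher, such as the cation channel gene Trpv4 (4.88 and 3.36), against 19.8% of all genes. Another 4 were lower, such as Kdr, a receptor for vascular endothelial growth factor (-4.24 and -4.35), against 15.4% of all genes. Of 10 disturbed flow genes 6 were higher and 2 lower on the same background, a count that includes Edn1 and the gate gene Vcam1.

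Within single luminal cells thinned to 2000 UMIs, Klf2 and Klf4 tended to be found together, with a Spearman rho of 0.31 over 202 ND cells and 0.44 over 95 HFD cells. Klf2 and Edn1 gave -0.24 in both libraries. Klf2 and Nos3 gave 0.01 under ND and 0.39 under HFD, so this pair was not alike in the 2 libraries. Among the immediate early genes, luminal Klf4 with Atf3 gave 0.04 under ND and 0.46 under HFD, and Klf2 with Fos gave -0.06 and 0.26. Luminal Klf4 with Jun was positive in both libraries, at 0.17 and 0.23. In 1047 ND and 603 HFD capillary cells Klf4 had the larger values under ND, with Atf3 at 0.22 and 0.09 and Jun at 0.22 and 0.11. Klf2 with Fos gave -0.09 and 0.02 there. Outside the luminal gate, Klf2 and Klf4 gave 0.30 and 0.17 in capillary cells and 0.14 and 0.17 in Stc1/Hey1/Sema3g cells. These values describe sparse counts of cells that share a library.

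Over 24 groups of cells (a class in a library), which share libraries and depth, the pattern of Klf2 was most like that of Arhgap31, S1pr1 and Rgl2 (Pearson's r of 0.95, 0.92 and 0.91 of log2 CPM, among 10778 genes). That of Klf4 was most like Dstyk, Hspa1b and Arl13b (0.90, 0.89 and 0.89), and that of Nos3 most like Mmrn2, Gata2 and Sox18 (0.96, 0.95 and 0.95). Thbd was most like Plat, Grb10 and Cd34 (0.91, 0.90 and 0.90), Edn1 most like Fbln5, Fbln2 and Col8a1 (0.94, 0.92 and 0.88) and Piezo1 most like Bst2, Scarf1 and Emcn (0.92, 0.90 and 0.90). Among the members themselves, Nos3 and Piezo1 were the most alike (0.81) and Edn1 and Piezo1 the least (0.23).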

How the data were processed

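Single-cell droplet libraries of the aortic arch were prepared by the authors from 1 pool of 2 aortas per diet. The deposited values are raw UMI counts per gene and barcode (matrix header 3.0.1; Cell Ranger and the mm10 genome per the submitters' processing notes), not filtered by quality. The deposited files that join both libraries were not used, since the single libraries hold the same counts. Barcodes with at least 200 genes, 200 UMIs and at most 30% mitochondrial UMIs were kept (Python 3.11.15, numpy 2.4.6, scipy 1.17.1, pandas 2.3.3). Cells were gated by marker UMIs: luminal, at least 4 of Vwf and Vcam1 and at most 2 of Gpihbp1; capillary, at least 3 of Gpihbp1 and at most 2 of Vwf and Vcam1, split at 2 or more against 0 of Cxcl9; and at least 4 of Stc1, Hey1 and Sema3g over at least 2 of these genes with at most 2 of Vwf and Vcam1, a condition added after a first look at the gate. Barcodes that passed the gates of several classes were set aside as mixed, and no other doublet removal was made. UMIs were summed per class and library and divided by the sum over all genes (CPM), with exact Poisson, binomial (Clopper-Pearson) and conditional binomial intervals. A difference was counted at 1.5-fold and at least 100 UMIs over both groups, and limits for 0 counts used 3 UMIs. With 1 library per diet no test was possible. The ratio of HFD over ND in endothelial cells was tried on simulated Poisson counts. These had no spread between cells, so the trial does not show how the intervals behave with such spread. The levels were not part of it.

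The genes named were the 6 members, the genes of the pathway and immediate early lists, those with the highest and lowest diet ratio, and for each member the 3 genes of highest Pearson correlation of log2(CPM + 10) over groups of at least 20 cells, among genes with at least 200 UMIs. Marker genes quoted to check a gate, and the examples drawn from the lists, were chosen with their values known. The members and lists were chosen with earlier results of these data known. Alternatives changed the scaling, mitochondrial limit, gates, depth and doublets (Scrublet in scanpy 1.11.5), and the limit of 50% was added after seeing the data.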

Additional observations from a re-analysis of the deposited data

Results flagged for a closer look

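For 2 genes, luminal cells differed between the diets in one direction and capillary cells in the other. The log2 ratio of HFD over ND for Klf4 was -0.80 in luminal and 0.13 in capillary cells, and for Thbd it was -0.79 in luminal and 0.99 in capillary cells. With 1 library per diet, the difference between the subtypes was not tested. Both genes kept these opposite directions under each of the 4 scalings computed within the subtypes, with Thbd at -0.83 to -0.51 in luminal and 0.99 to 1.10 in capillary cells.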

How the results depend on the processing

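All values are log2 ratios. Over all endothelial cells, HFD over ND kept its sign under 10 of 10 alternatives for Klf2, Nos3, Piezo1 and Thbd, 9 of 10 for Edn1 and 8 of 10 for Klf4. Values that moved beyond the counting interval were as follows. With at most 20% mitochondrial UMIs, Edn1 was 0.0612, Klf4 -0.0111, Nos3 0.44 and Thbd 0.36. With at most 50%, Edn1 was -0.78, Klf2 -0.49, Klf4 0.14, Piezo1 -0.0647 and Thbd 0.71. The mean within 4 subtypes gave Edn1 -0.17, Klf2 -0.61 and Klf4 -0.12. The mean of each cell's CPM gave Edn1 -0.19, Klf4 0.11 and Thbd 0.69. With mixed barcodes kept, Edn1 was -0.59 and Klf2 -0.61. Scaling by the median of ratios gave Klf2 -0.46, Klf4 0.15 and Thbd 0.64, and scaling without mitochondrial, haemoglobin and ribosomal protein genes gave Klf2 -0.48 and Klf4 0.14. Thinning to 2000 UMIs gave Edn1 -0.17, Klf2 -0.49, Klf4 0.15 and Thbd 0.87. Without the highest 6% of doublet scores, Edn1 was -0.25. Thbd was past 1.5-fold under 5 of the 10.

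Luminal over capillary, as the mean of both libraries, kept its sign under 10 of 10 alternatives except for Klf2 (8 of 10). Edn1 was 6.39 with the gate minimum doubled, 6.70 with at most 20% mitochondrial UMIs, 5.36 by the mean of each cell's CPM and 5.24 after thinning. Thbd was 0.65 by the mean of each cell's CPM, Piezo1 was -1.22 after thinning, and Klf2 was -0.0817 with mixed barcodes kept. The median of ratios gave Klf2 -0.21, Klf4 -1.27, Nos3 1.20 and Thbd 0.16. The causes were not tested. Counts of at most a few UMIs, such as Edn1 in Cxcl9 capillary cells, limit any ratio. No paired analysis was possible because each diet was 1 library.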
